A study of Drosophila melanogaster with 4 samples.

Results

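The genes described are 27 splicing factor and RNA-binding protein genes of Drosophila melanogaster, out of 6793 genes named on the arrays. They were chosen by gene symbol alone: Prp followed by a digit, Cwc, Sf3, snRNP, LSm, Hrb, Rbp followed by a digit or U2af at the start of the symbol, or one of the Sm protein symbols, B52, SC35, x16 or Rsf1. The rule itself uses no measured value, although it was written with earlier results of these data known. Of 46 genes in the RefSeq table that meet this naming rule, 19 had no spot under a single symbol on these arrays, among them the SR protein genes B52, SC35 and x16, the hnRNP gene Hrb98DE and the U1 gene snRNP-U1-C, and they were not analysed on them.

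Cold-shocked flies were kept for 2 h at 0 ± 0.5 °C and given 30 min of recovery at 25 °C, and untreated flies of the same cohorts remained at 25 °C. Both groups were whole adult males of the strain dp cn bw cl, aged 6 to 7 days after eclosion, so every marker mutation of the strain was carried by both. Each of 3 two-channel cDNA arrays of a 12k design compared 1 independent biological pair, with cold-shocked RNA in Cy5 and untreated RNA in Cy3, and 1 pilot array of a 7k design had the dyes reversed. The values are the authors' log ratios per spot, taken as log2, and a ratio above 0 on the 12k arrays is likely higher in cold-shocked flies. The sources used here do not state this, and every direction and rank given for the 12k arrays rests on it. Because those 3 arrays had 1 dye orientation, a difference between dyes and a difference between treatments cannot be told apart. The ratios hold no signal level, so neither the abundance of a transcript nor its distance from background could be judged, and in whole flies fewer cells of a type cannot be told apart from less RNA per cell.

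Introns are removed by the spliceosome, which is built on each transcript from small nuclear ribonucleoprotein particles, or snRNPs. U1 recognises the 5′ splice site, U2 the branch site, and the tri-snRNP of U4, U6 and U5 then joins, after which the Prp19 complex and step-specific factors carry the particle through both catalytic steps. SR proteins and hnRNP proteins bind the transcript itself and set which sites are used, and several of them also act in export, translation and RNA stability.

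After cold shock no gene of this machinery passed the test, and most ratios lay close to 0. The mean log2 ratio over the 3 arrays was within a fold of 1.5 of no difference for 26 of the 27 genes, or 96.3%, where the share among all named genes was 93.6%. Cwc25, a gene for a step-specific spliceosome factor, was the exception at −1.31. Next to it the lowest means were those of Prp3, Prp38 and Hrb27C, and the highest were those of Rbp9, Sf3b6 and Prp18. Of the 27 genes 16 had means below 0 and 11 above.

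Over all 19325 features, which are genes averaged over their spots and unnamed spots on their own, 0 passed limma's moderated test at a Benjamini-Hochberg adjusted p of 0.05, a share of 0.0%. The smallest adjusted p was 0.853, for features and for these genes alike. At an unadjusted p of 0.05 the limma fit held 1 of the 27 genes, Cwc25, where 4.78% of all features and 3.49% of named genes were under that limit. In a fit to named genes only, for which no share is given here, Prp3 was under it as well. With the median of the spots listed around each spot subtracted, the genes under it were Cwc25 and Rbp9, or 2 of 27. In that fit 1111 of 19325 features and 267 of 6793 named genes were under it, and Prp3 had an unadjusted limma p of 0.108. The 95% limma interval included 0 for 26 of the 27 genes, and among the genes other than Cwc25 its median half-width was 0.54 in log2, equal to a 1.46-fold difference. Among these genes, means under about that size did not reach an unadjusted limma p of 0.05 in the fit to all features. It is not a size that 3 arrays could reliably detect, since after adjustment no feature of any size passed. For Sf3b2 and Hrb87F the interval lay within a fold of 1.5 in both directions. It is built on spot averages and does not include the disagreement between spots. On array 2 the spots of Hrb87F had −0.77 and 0.45, and those of Sf3b2 had 0.0047 and 0.56.

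**Figure D1:**
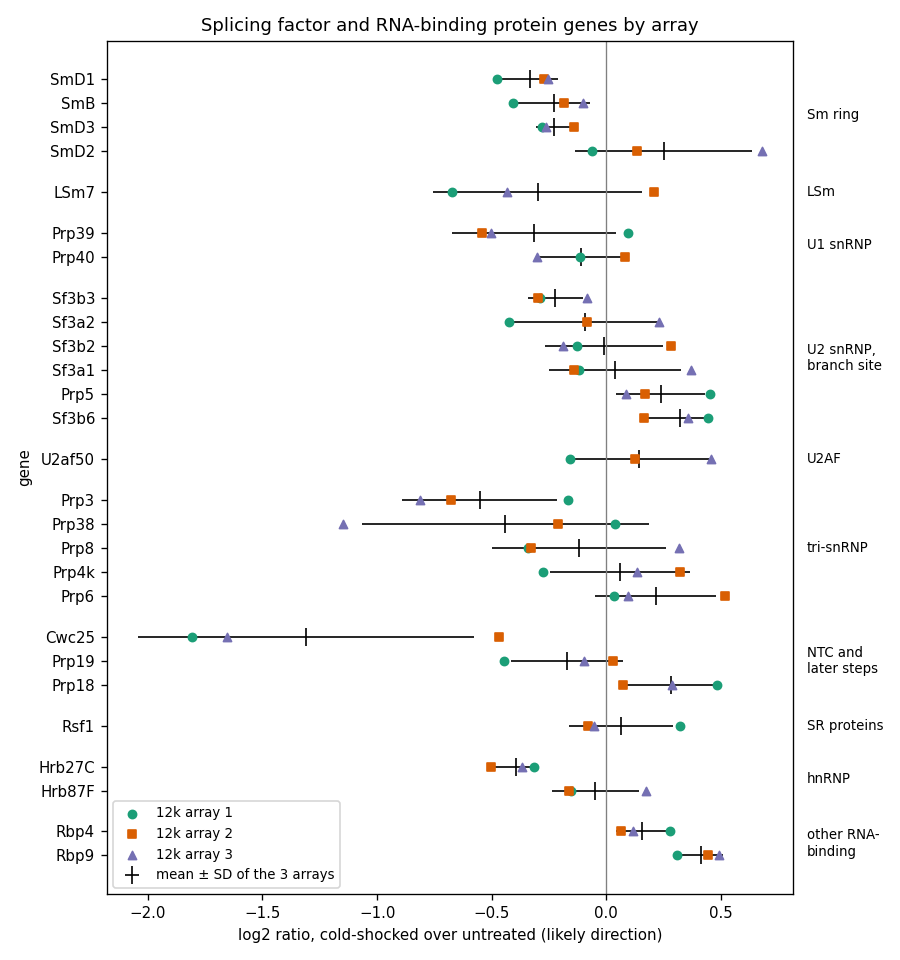
Log2 ratio of each of the 27 genes (rows, grouped by role) on the 3 arrays of the 12k design (symbols), with the mean and SD over the arrays (vertical tick and bar). Cwc25 stands apart at a mean of −1.31, and all other means lie between −0.55 and 0.41.

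The Sm proteins form the ring that sits on the U1, U2, U4 and U5 snRNAs, and 4 of their genes were measured. SmD1 had log2 ratios of −0.48, −0.27 and −0.26 on arrays 1 to 3, a mean of −0.34 ± 0.12 (SD, n = 3). SmB stood at −0.41, −0.18 and −0.10, with a mean of −0.23 ± 0.16 (SD, n = 3). SmD3 stood at −0.28, −0.14 and −0.27, with a mean of −0.23 ± 0.08 (SD, n = 3). These genes were below 0 on every array, by small amounts that were largest on array 1. SmD2 went the other way on arrays 2 and 3, with −0.06, 0.13 and 0.68. The limma adjusted p was at least 0.860 for each of these genes, and the interval for SmD1 ran from −0.86 to 0.19. LSm7, whose protein belongs to the Sm-like rings of U6 snRNA and of mRNA decay, had −0.68, 0.21 and −0.43, so the biological pairs disagreed in sign.

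Of the U1-associated factors, both known as U1 components from yeast, Prp39 had 0.09, −0.54 and −0.50 and Prp40 had −0.12, 0.08 and −0.30. Array 1 stood above the other arrays for Prp39. No U1 gene had a single sign over the arrays.

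The U2 snRNP and its branch site factors gave 6 genes, with a median of their means of 0.01. Sf3b6, which encodes the small SF3b protein that contacts the branch point, had 0.44, 0.16 and 0.36, a mean of 0.32 ± 0.14 (SD, n = 3). That mean came from 1 of its 2 spots, with a mean of 0.65 for spot 1 and −0.0046 for spot 2. Prp5, an ATPase gene known in yeast to act when U2 joins the branch site, had 0.45, 0.17 and 0.09, a mean of 0.24 ± 0.19 (SD, n = 3). The averages of Sf3b6 and Prp5 were above 0 on every array. Sf3b3, for a large scaffold subunit of SF3b, had −0.29, −0.30 and −0.08, a mean of −0.22 ± 0.12 (SD, n = 3), and was below 0 on every array. The averages of Sf3b6 and Sf3b3 lay on opposite sides of 0. Spot 1 of Sf3b3 had a mean of −0.03 and spot 2 one of −0.41, so the contrast rests mainly on 1 spot of each gene. The third SF3b gene, Sf3b2, had mixed signs and a mean of −0.01. Sf3a1 and Sf3a2, of the partner complex SF3a, had means of 0.04 and −0.09, also with mixed signs. U2af50, the gene of the large U2AF subunit that binds the polypyrimidine tract, had −0.16, 0.12 and 0.46, and its mean of 0.14 became −0.0164 without array 3.

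Among the 5 genes of the tri-snRNP and of spliceosome activation, Prp3 had the lowest mean. Prp3, a U4/U6 protein gene, had −0.17, −0.68 and −0.81, a mean of −0.55 ± 0.34 (SD, n = 3), or 1.47-fold lower in the cold-shocked channel. Its 95% interval ran from −1.13 to 0.02 and its limma adjusted p was 0.853. All arrays lay below 0, with array 1 closest to it. Prp38, whose yeast counterpart is needed for spliceosome activation, had 0.04, −0.21 and −1.15. Its mean of −0.44 ± 0.63 (SD, n = 3) rested on array 3, without which it was −0.0863. Prp6, which bridges U5 with U4/U6, had 0.03, 0.52 and 0.09, above 0 on every array but close to it on arrays 1 and 3. Prp8, the U5 protein at the catalytic centre, stood at −0.34, −0.33 and 0.32. The kinase gene Prp4k stood at −0.28, 0.32 and 0.13, so the averages of neither had a common direction. Their spots disagreed as well, with 1.05 and −0.41 for Prp8 on array 3 and 0.92 and −0.28 for Prp4k on array 2.

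The later factors hold the widest range of means, which rests on Cwc25. Cwc25, whose yeast counterpart acts in the first catalytic step, had −1.81, −0.47 and −1.65 on arrays 1 to 3. The mean was −1.31 ± 0.73 (SD, n = 3), likely 2.48-fold lower in the cold-shocked channel, with a 95% interval from −2.05 to −0.57. Both average 2 spots that disagreed, and the interval does not include that disagreement. The mean of Cwc25 was the 26th lowest of the 6793 named genes, and would be as far up with the ratio turned. The limma adjusted p was 0.853, and the unadjusted p was 0.00425. Arrays 1 and 3 were far below 0, while array 2 lay closer to it.

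The spots behind Cwc25 did not agree. Spot 1 had −2.14, −0.72 and −3.34 on arrays 1 to 3, whereas spot 2 had −1.48, −0.21 and 0.03. On array 3 they differed by 3.37 in log2, the only difference above 2 between spots of one of these genes. Of all named genes 4.83% had such a difference on at least 1 array. The mean was −2.07 from spot 1 and −0.55 from spot 2. The spots listed around the pair were low as well on arrays 1 and 3. Their local medians were −0.99 and −1.01 on array 1 and −0.70 for both on array 3, against 0.04 and 0.06 on array 2. With these local medians subtracted, the mean of Cwc25 was −0.76, made of −1.52 for spot 1 and −0.0001 for spot 2.

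Prp19, the ubiquitin ligase gene that gives the Prp19 complex its name, had −0.45, 0.03 and −0.10. Prp18, a factor of the second catalytic step in yeast, had 0.48, 0.07 and 0.29, a mean of 0.28 ± 0.20 (SD, n = 3), above 0 on every array. The averages of the first-step and second-step genes Cwc25 and Prp18 thus had opposite signs, and neither gene passed the test. With local medians subtracted, spot 2 of Cwc25 had a mean of −0.0001, so the contrast then came from spot 1.

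Among proteins that bind the transcript outside the snRNPs, Hrb27C had the lowest mean and Rbp9 the highest. Hrb27C, also known as Hrp48, is an hnRNP gene whose product represses P-element splicing and osk translation. It had −0.32, −0.50 and −0.37, a mean of −0.40 ± 0.10 (SD, n = 3), or 1.31-fold lower in the cold-shocked channel, with an interval from −0.92 to 0.13 and a limma adjusted p of 0.853. Its arrays lay close together, and it was the only gene of the group with 4 spots, and 9 of its 12 spot values were below 0. Hrb87F, a related hnRNP gene, had −0.15, −0.16 and 0.17.

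Rbp9, a neuronal RNA-binding protein gene of the ELAV family, had 0.31, 0.44 and 0.49, a mean of 0.41 ± 0.09 (SD, n = 3), or 1.33-fold higher in the cold-shocked channel. Its interval ran from −0.11 to 0.93 and its limma adjusted p was 0.853. All 3 arrays were above 0, and the SD was small beside the mean. Rbp4, an RNA-binding protein gene known from the testis, had 0.28, 0.06 and 0.12, also above 0 throughout. Rsf1, for a splicing repressor that antagonises SR proteins, had 0.32, −0.08 and −0.05, and its mean of 0.06 became −0.0667 without array 1.

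Counted by direction, 13 of the 27 genes, or 48.1%, had a single sign on all 3 arrays, 6 above 0 and 7 below. The share was 29.4% among named genes and 27.8% among all features, and by direction 12.5% of named genes were above 0 and 16.9% below. The genes above 0 were Rbp9, Sf3b6, Prp18, Prp5, Prp6 and Rbp4, and those below were Cwc25, Prp3, Hrb27C, SmD1, SmB, SmD3 and Sf3b3. No test was made of this share, and the ratios of most of these genes were smaller than the size that 3 arrays could detect. The count past a fold of 1.5 on all 3 arrays was 0 of 27, where 0.445% of all features were past it.

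Single spots gave a stricter count. In 4 of the 27 genes, Prp3, SmB, SmD1 and Rbp9, every spot on every array lay on one side of 0, against 8.01% of named genes (3.64% above 0 and 4.37% below). The spot values of Prp3 ran from −0.95 to −0.13, those of SmD1 from −0.64 to −0.12 and those of Rbp9 from 0.08 to 0.59. SmB reached −0.0049 at its highest, which is hardly below 0. For Sf3b3, 3 of 6 spot values were above 0 although its array means were all below. Over the 26 genes with 2 spots, the median difference between the spots was 0.24, 0.37 and 0.28 on arrays 1 to 3, against 0.32, 0.34 and 0.39 over 6106 named genes with 2 spots, so many of the ratios above were no larger than the difference between spots of one gene.

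**Figure D2:**
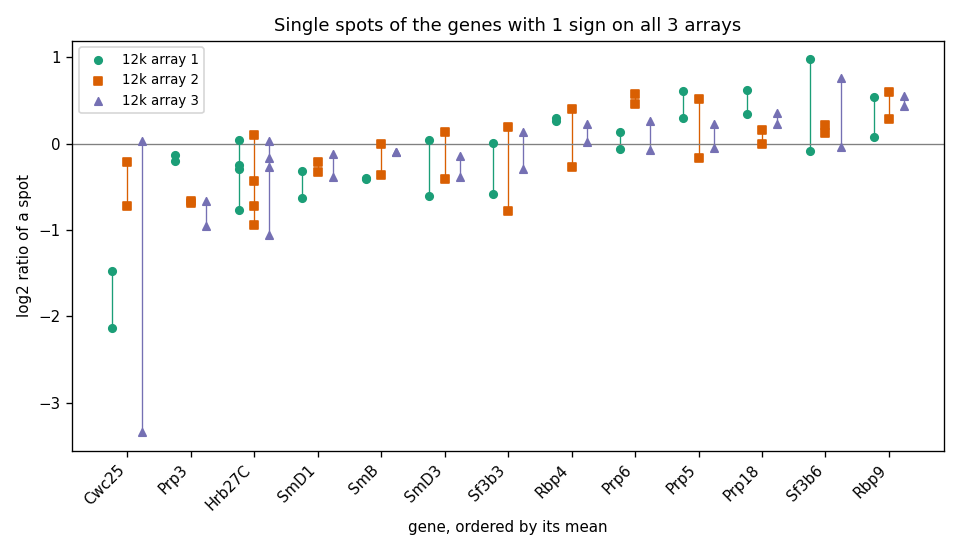
Log2 ratio of each single spot (vertical axis) of the 13 genes with a single sign on all 3 arrays (horizontal axis, ordered by mean), with colour and symbol for the array and a line joining spots of one gene on one array. The spots of Cwc25 on array 3 are 3.37 apart, while all spots of Prp3, SmD1, SmB and Rbp9 lie on one side of 0.

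Spots listed next to one another could share a shift, as seen around Cwc25. Each spot was therefore also taken relative to the median of its neighbours in listed order, 50 spots on each side. Positions on the slide were not used, so it is not known that these neighbours lay side by side. Of the 13 genes with a single sign, 10 kept it, and Prp3, SmB and Prp6 did not. Rsf1 gained one, which gave 11 of 27, or 40.7%, against 30.8% of named genes. Prp3 then had 0.07 on array 1 and a mean of −0.45, and SmB also had 0.07 on array 1, with a mean of −0.0825. The mean of Rbp9 was 0.57 and that of Sf3b6 0.39, both larger than as deposited. That of Hrb27C was −0.36 and that of SmD1 −0.24.

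**Figure D3:**
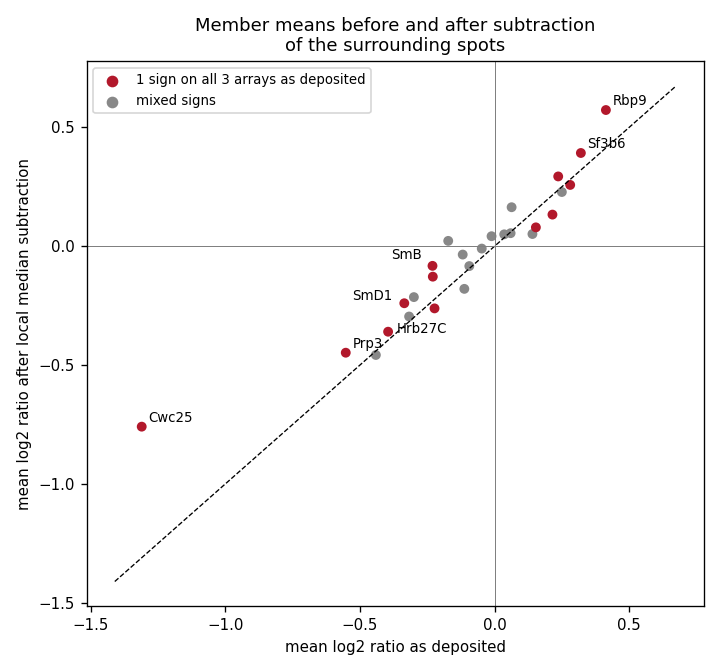
Mean log2 ratio over the 3 arrays after subtraction of the local median (vertical axis) against the mean as deposited (horizontal axis) for the 27 genes, with the line of equality dashed and genes of a single sign in red. Cwc25 lies closer to 0 after subtraction, at −0.76, and Rbp9 farther from it, at 0.57.

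As a group, the 27 genes had a median log2 ratio of −0.15, −0.08 and −0.05 on arrays 1 to 3, against −0.12, 0.02 and 0.02 for all named genes and −0.13, 0.04 and 0.03 for all features. The median of the means was −0.09, against −0.05 for named genes and −0.04 for all features. Without array 1 it was −0.0053. The median SD over arrays was 0.25 for these genes and 0.34 for named genes. Across the 27 genes, which are not independent and share the arrays and the dye orientation, the ratios on array 1 correlated with those on array 2 at a Pearson's r of 0.38 and with those on array 3 at 0.58, and arrays 2 and 3 correlated at 0.55. Without Cwc25 these values were, in that order, 0.28, 0.25 and 0.51, and over all named genes they were 0.09, 0.10 and 0.08.

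Other genes of RNA processing, from lists of spliceosome proteins outside the naming rule, splicing regulators, SR protein kinases and phosphatases, exon junction and nonsense-mediated decay factors, export, 3′ end processing, RNA decay and snRNP assembly, gave 92 measured genes of 142. None passed the limma test, and 3 were under an unadjusted p of 0.05. A single sign was found for 13 genes above 0 and 13 below, or 28.3%, close to the 29.4% of named genes. The median of their means was −0.05, the same as for named genes.

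The lowest of the snRNP assembly genes was WDR79, for a Cajal body protein, with −1.41, −0.87 and −0.92 and a limma adjusted p of 0.853. It was the only one of the 92 past a fold of 1.5 on all arrays. In the same list Gem3, a helicase gene of the SMN complex that loads Sm rings, had 0.28, 0.90 and 0.31, and Phax, the snRNA export adaptor, had −0.57, −0.15 and −0.23. Of the 7 measured genes in that list, 2 were above 0 and 2 below on every array.

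Of 22 measured spliceosome genes outside the rule, 5 were above 0 and 3 below on every array. The cyclophilin gene cyp33 had a mean of −0.65, of which array 3 gave −1.34, fand, of the Prp19 complex, had a mean of 0.38, and CG9667 one of −0.36. With local medians subtracted these means were −0.38, 0.34 and −0.32. Of 16 splicing regulators, 2 were above and 2 below. The sex determination regulator tra had −1.16, −0.39 and −0.40, Psi, a repressor of P-element splicing, had a mean of −0.39 and the hnRNP gene glo one of 0.41. Among 3 kinase and phosphatase genes, Pp1alpha-96A, a catalytic subunit of protein phosphatase 1, had −1.07, −0.0025 and −2.21. Its mean was −1.09 as deposited and −0.52 with local medians subtracted.

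Of 10 export genes, 2 were above 0 and 0 below on every array, with Gle1 at 0.23, 0.92 and 0.35 and Rae1 at a mean of 0.32. Of 11 genes for 3′ end processing, 0 were above and 1 below, the nuclear poly(A)-binding protein gene Pabp2 at −0.47, whose spots differed by up to 3.37. Of 8 exon junction and nonsense-mediated decay genes, 1 was above, RnpS1 at 0.21, and 1 below, Smg6 at −0.16. Of 15 decay genes, 1 was above and 3 below. The exosome subunit genes differed, with Ski6 at −0.42, −0.52 and −0.59 and Rrp4 at 5.08, 0.12 and 0.21, so that the mean of Rrp4 was 1.81 with array 1 and 0.17 without it. The helicase gene tst of the Ski complex had a mean of −0.39.

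Some markers of females, which all-male samples should lack, had low ratios on the same arrays. Of 10 measured markers, 5 were below 0 on every array and 0 above, while 3 had means above 0. The median of the 10 was −0.74 on array 1, −0.37 on array 2 and −0.24 on array 3. The yolk protein gene Yp1 had −4.22, −2.32 and −1.40, Yp3 had a mean of −0.99, and the germline thioredoxin gene dhd had −2.60, −2.78 and −1.75. Of 11 testis markers, 1 was above 0 on every array, ocn at 0.17, and 1 below, Prosalpha4T1 at −0.62. With local medians subtracted, ocn stood at 0.14 and Prosalpha4T1 at −0.35. The 2 accessory gland markers had mixed signs. The part of these markers in the ratios of the splicing genes was not tested.

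The pilot array carried 8 genes of the naming rule, 6 of them also measured on the 12k arrays. Its direction is not settled, so its log2 ratios keep the deposited sign, less the array median of 0.40, and with the opposite orientation each sign would be reversed. Sf3b3 stood at 0.70, Prp40 at 0.70, Hrb27C at 0.62, Prp16 at 0.28, B52 at 0.23, Prp18 at 0.14, Sf3a2 at 0.11 and Prp4k at −0.06. Prp4k was 0.35 before the array median was subtracted, so its sign on the pilot rests on that step. Sf3b3, Prp40 and Hrb27C, with the largest sizes, had 12k means of −0.22, −0.11 and −0.40, from arrays that were not centred. With the pilot sign turned they stood at −0.70, −0.70 and −0.62, but Prp40 had mixed signs on the 12k arrays. Prp18, Sf3a2 and Prp4k had 12k means of 0.28, −0.09 and 0.06, and stood at −0.14, −0.11 and 0.06 with the pilot sign turned. The average of Prp18 thus had opposite signs on the designs under that orientation. Its 4 pilot spots, in the deposited sign and less the array median, ran from −0.65 to 0.85, so they disagreed in sign. The middle 90% of the 2377 genes named on the pilot lay between −0.86 and 1.04, and all 8 genes lay inside it. There was no replicate, and no test was made.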

How the data were processed

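Each array file deposited by the authors holds a ratio of its 2 channels for every spot, calculated after a normalization, per the labels. Image analysis, background correction, normalization method, log base and any spot filter were not stated in the labels or files. The deposited values were taken as log2 because they reached −14.57, beyond the natural log of a 16-bit range, 11.09. The number of arrays limits the precision.

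Spots were named through the platform annotation, with symbols updated through the RefSeq table of the Release 6 assembly, which matched 14894 of 15116 spots with a single symbol. The 27 genes had 56 of 27648 spots. Spots of one gene were averaged, other spots stayed single, and the mean of the 3 independent pairs was tested against 0 with lmFit and eBayes (limma 3.58.1 under R 4.3.3) as a two-sided test, with p-values adjusted by Benjamini-Hochberg over 19325 features. There were 2 residual degrees of freedom and 4.99 prior ones. The fit was also run on simulated ratios with independent noise and known changes. These held no dye effect, shared shift or disagreement between spots, so they could not show how the fit handles those. Array SDs ranged from 0.457 to 0.729 and array medians from −0.13 to 0.03, and no array was centred.

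The naming rule uses symbols only, but the rule, and so the members, and the lists were chosen with earlier results of these data known. All members are given by role. From each list the 3 genes with the largest absolute mean and a single sign on all arrays are named. Alternatives covered centring, scaling, local medians (50 spots on each side), spot averaging, the features fitted, the fold limit, moderation and each array left out.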

Additional observations from a re-analysis of the deposited data

How the results depend on the processing

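The count of features past the test was 0 under all 11 alternatives run, where the smallest limma adjusted p ran from 0.184 (named genes only) to 0.954 (without replicate 3), and none of the 27 genes passed in any of them. The means of 8 of the 14 genes with mixed signs turned in at least 1 alternative. The 13 genes with a single sign could not turn when a replicate was left out. Without one replicate, Rsf1 ranged from −0.0667 to 0.135, U2af50 from −0.0164 to 0.290, Sf3a2 from −0.254 to 0.0712, Sf3b2 from −0.158 to 0.0783, Sf3a1 from −0.130 to 0.125, Hrb87F from −0.157 to 0.00918 and Prp4k from −0.0707 to 0.228. With local medians subtracted Prp19 was at 0.0225 and Sf3b2 at 0.0421, and Sf3b2 was at 0.0102 with arrays centred and 0.0104 with arrays scaled. That count of 13 became 17 to 19 when a replicate was left out and 2 arrays sufficed, 15 with arrays centred and 4 when every spot had to share it, the last chosen after seeing the data. The 0 genes past a fold of 1.5 became 1 at a fold of 1.3 and 0 to 1 without one replicate. Except for the count of 4, beside which 8.01% of named genes stood, no share of all features or named genes is given for these settings. Whether these other counts were unusual therefore cannot be read from them, and 2 arrays share a sign more readily than 3. The median of the means, −0.09, became −0.00993 with local medians subtracted and ranged from −0.130 to −0.0053 without one replicate. The median of the pilot values, 0.255, became −0.255 with the sign turned, by construction. Symbols as annotated gave the same 27 genes. The test of the 3 ratios is itself paired, since each ratio compares 1 biological pair. Across the designs no paired fit was made, as the pilot has no partner array. Array intensities were not analysed here, so signal over background could not limit which spots were used.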
